A study of Homo sapiens with 4 samples.

Results

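Aminoacyl-tRNA synthetases and their scaffold proteins were examined as a set of 38 genes, taken as every line of the deposited tables whose gene name was among them. The set holds 18 cytosolic enzymes, 16 mitochondrial enzymes, 2 enzymes whose gene serves both compartments (GARS1 and KARS1) and 2 scaffolds (AIMP1 and AIMP2). Of the 38 genes, 29 had at least 1 listed cytidine, at 110 distinct positions of the 17862 listed in all. FARSB, LARS1, TARS3, FARS2, HARS2, IARS2, MARS2, PARS2 and TARS2 were in neither table and have no value. The cells were LX-2, an established human line of hepatic stellate cells described as wild type. In 2 libraries they had received recombinant human TGF-β1 (5 ng/ml, 24 h), the growth factor used to activate stellate cells, and in 2 control libraries they were untreated. Polyadenylated RNA of the 4 libraries was analysed by sequencing after sodium borohydride (NaBH4), which reduces N4-acetylcytidine (ac4C) so that reverse transcriptase can misread it. No library is labelled as made without NaBH4, so a listed cytidine is a mismatch not shown here to be ac4C. For each group the authors deposited 1 table, with 1 mismatch difference and 1 p-value per position, and what is subtracted to give the difference is not stated. No value per library, read number or depth is given, so nothing below has a replicate error, and a position missing from a table may have been read too rarely, may have missed the authors' limits or may carry no modification.

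Aminoacyl-tRNA synthetases attach each amino acid to its own tRNA and so supply the ribosome. Cytosolic and mitochondrial translation use separate sets of enzymes, all encoded in the nucleus, and a few genes give both forms. Several cytosolic enzymes sit in the multisynthetase complex, which AIMP1 and AIMP2 hold together. Uncharged tRNA activates the kinase GCN2, and the transcription factor ATF4 then raises many synthetase genes.

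Sequence was at hand for 5 of the 110 positions, those inside RefSeq promoter windows of GRCh38.p14, which run from 250 bases before to 50 bases after a gene's start. They are shown because they place the cytidine of the tables on the transcript strand, 5′ to 3′, with the listed C in capitals and 10 bases to either side. The HARS1 and AARS2 coding positions lie in windows of neighbouring genes on the opposite strand and were read from their complement.
KARS1 5'UTR, chr16:75647636-75647656, minus strand: tcgggccctcCgggaagatgg
HARS1 5'UTR, chr5:140691337-140691357, minus strand: ctggggcaacCaccgcaggtc
HARS1 coding, chr5:140691281-140691301, minus strand: gcagagcgtgCggcgctggag
HARS1 coding, chr5:140691255-140691275, minus strand: ggtgaaacttCagggagagcg
AARS2 coding, chr6:44306980-44307000, minus strand: gtgcgtttctCcatggagatc
The capital C of KARS1 stands in the triplet CCG and that of HARS1 at position 140691291 in GCG. Those at HARS1 positions 140691347 and 140691265 stand in CCA and TCA, and that of AARS2 in TCC. Over all genes, the base read this way was C at 265 of 265 TGF-β1 positions and 190 of 190 control positions that fell in such windows, so the end column of the tables is the 1-based coordinate. There G followed the listed C at 57.7% of the TGF-β1 positions (95% Wilson interval 51.7 to 63.5) and 51.6% of the control positions (44.5 to 58.6), against 29.9% of all 31913 C on those strands of the same windows. The 4 HARS1 and KARS1 positions were listed after TGF-β1 only, and the AARS2 position in both groups. Over all genes, 16.9% of TGF-β1 positions and 24.5% of control positions were listed in the other group too. HARS1 and HARS2, which code for the cytosolic and the mitochondrial histidyl-tRNA synthetase, start head to head with 84 bases between their RefSeq starts, and HARS2 had no listed position.

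After TGF-β1 the synthetase and scaffold genes carried 68 listed positions, against 51 in control, a ratio of 1.33. The interval of that ratio was 0.914 to 1.96, from an exact binomial interval at 95% that covers the counting of positions only. All genes together gave 12076 positions after TGF-β1 and 8298 in control, a ratio of 1.46, which lies inside the interval of the members. These 2 totals count a position once for each gene it lies in, and the distinct positions were 11735 and 8112. More positions after TGF-β1 were found in 15 of the 29 listed genes, fewer in 11 and equal numbers in 3. Over all 6112 listed genes 51.2% had more and 35.3% had fewer, so the members' counts are near the background. When only as many TGF-β1 positions as the control table holds were kept, those of lowest p, the ratio of the members was 0.961 and that of all genes 1.003. There the TGF-β1 count was the larger one in 9 members and the smaller one in 14. Genes were not counted this way over the whole reduced list. Whether the change from 15 and 11 is particular to the members is therefore not known.

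**Figure D1:**
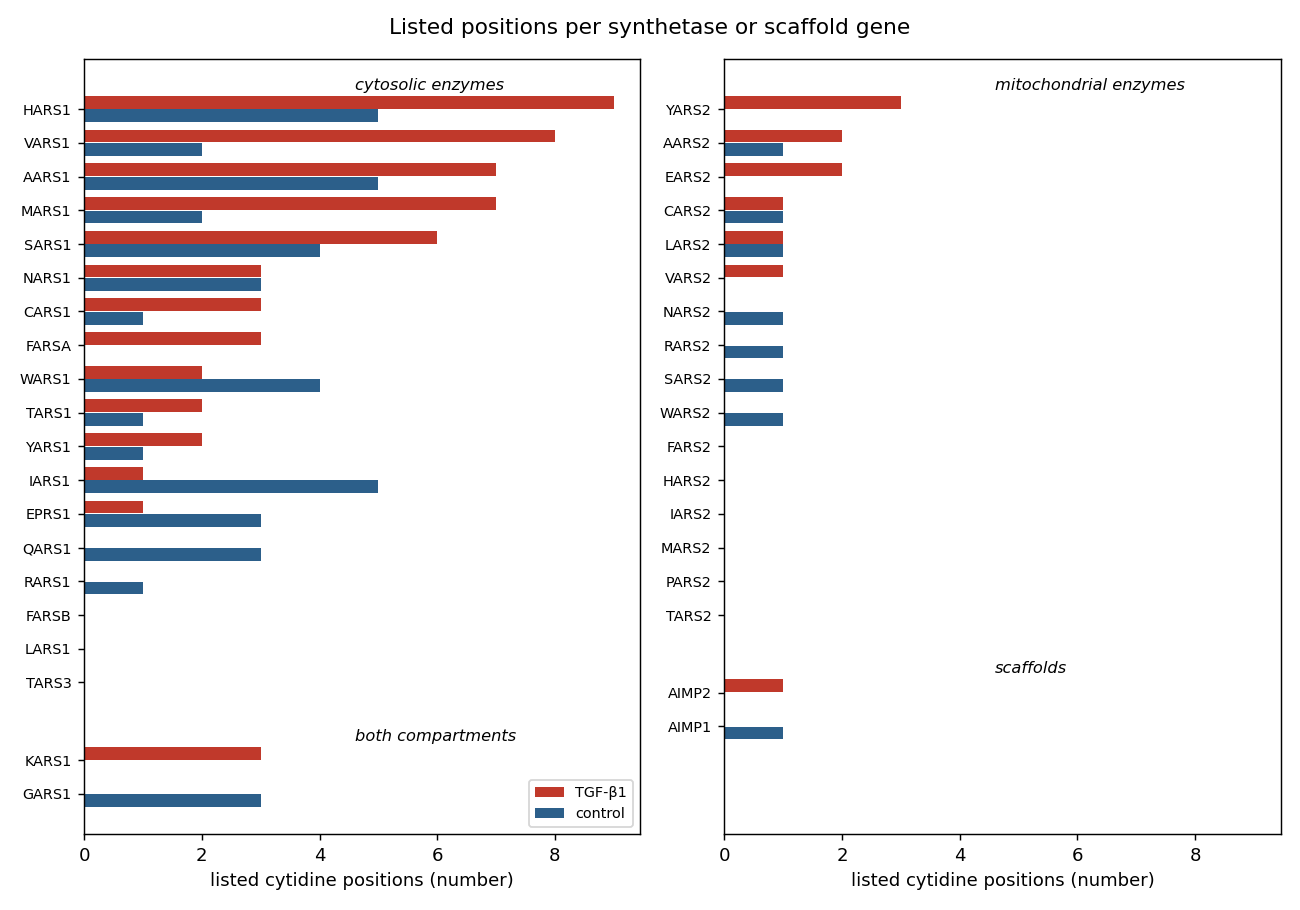
Number of listed cytidine positions in each of the 38 genes (horizontal bars), TGF-β1 above control, by compartment. HARS1 has 9 positions after TGF-β1 against 5 in control and VARS1 8 after TGF-β1 against 2 in control, while IARS1 has 1 after TGF-β1 against 5 in control.

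Among the cytosolic enzymes, 54 positions were listed after TGF-β1 and 40 in control (ratio 1.35, interval 0.880 to 2.09), in 15 of 18 genes, of which 9 had more, 5 fewer and 1 equal numbers. HARS1 (ENSG00000170445), which charges histidine and is the antigen Jo-1 of autoimmune myositis, had 9 positions after TGF-β1, more than any other member, and 5 in control, as many as AARS1 and IARS1. VARS1 (ENSG00000204394), which charges valine and binds the elongation factor 1 complex, had 8 after TGF-β1 and 2 in control. MARS1 (ENSG00000166986), which charges the methionine of initiator tRNA too, had 7 after TGF-β1 and 2 in control. FARSA, the catalytic subunit of the phenylalanine enzyme, had 3 after TGF-β1 and 0 in control, and its partner subunit gene FARSB had none in either group. After TGF-β1 AARS1, for alanine, had 7, SARS1, for serine, 6 and CARS1, for cysteine, 3, against 5, 4 and 1 in control. TARS1 for threonine and YARS1 for tyrosine each had 2 after TGF-β1 and 1 in control. NARS1, for asparagine, had 3 in both groups.

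The cytosolic genes with fewer positions after TGF-β1 were IARS1, EPRS1, QARS1, RARS1 and WARS1. IARS1 (ENSG00000196305), for isoleucine, had 1 position after TGF-β1 and 5 in control. QARS1 (ENSG00000172053), for glutamine, had 0 after TGF-β1 and 3 in control. EPRS1, which joins the glutamate and proline enzymes in 1 protein, had 1 after TGF-β1 and 3 in control, and RARS1, for arginine, 0 after TGF-β1 and 1 in control. WARS1, the tryptophan enzyme that interferon induces, had 2 after TGF-β1 and 4 in control. IARS1, EPRS1, QARS1 and RARS1 all belong to the multisynthetase complex. Over the 7 complex enzymes of the set (these with KARS1, MARS1 and LARS1) there were 12 positions after TGF-β1 and 14 in control (ratio 0.857, interval 0.362 to 1.997), with 2 genes having more and 4 fewer. The 13 other cytosolic or shared enzymes had 45 positions after TGF-β1 and 29 in control (ratio 1.55, interval 0.952 to 2.57), with 8 having more and 2 fewer. The intervals of these 2 ratios overlap, and the difference between them was not tested.

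Each of the 2 genes that serve both compartments was listed in 1 group only. Of all 6112 listed genes, 1728 were listed after TGF-β1 only and 1668 in control only. KARS1 (ENSG00000065427), for lysine, had 3 positions after TGF-β1, at 11.1% and 5.05% in the coding sequence and 2.95% in the 5'UTR, and 0 in control. GARS1 (ENSG00000106105), for glycine, had 0 after TGF-β1 and 3 in control, at 4.31% in the coding sequence and 4.25% and 1.40% at adjacent bases of the 5'UTR. For the scaffolds, AIMP2 had 1 position after TGF-β1, a 5'UTR cytidine of 9.92%, and AIMP1 had 1 in control, a coding cytidine of 3.36%.

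Mitochondrial enzymes had few listed positions, 10 after TGF-β1 and 7 in control (ratio 1.43, interval 0.491 to 4.42), in 10 of 16 genes, of which 4 had more, 4 fewer and 2 equal numbers. The ratio is close to the 1.35 of the cytosolic enzymes and its interval holds it, and a difference between the compartments was not tested. YARS2 (ENSG00000139131), for tyrosine, had 3 positions after TGF-β1 and 0 in control, all in coding sequence, at 12.4%, 10.4% and 5.02%. EARS2, which puts glutamate on its own tRNA and on the mitochondrial glutamine tRNA, had 2 after TGF-β1, at 6.43% and 5.99%, and 0 in control. AARS2 had 2 after TGF-β1 and 1 in control and VARS2 1 after TGF-β1 and 0 in control, while CARS2 and LARS2 had 1 in each group at different bases. NARS2, RARS2, SARS2 and WARS2 each had 0 after TGF-β1 and 1 in control. For 13 amino acids a cytosolic gene was paired with the mitochondrial gene of the same amino acid. This leaves out phenylalanine with its 2 cytosolic subunit genes and the glutamate and proline of EPRS1. For threonine TARS1 was paired with TARS2, and the other cytosolic gene, TARS3, which had no listed position, was left out. The cytosolic gene of these pairs had more listed positions over both groups for 10, equal numbers for 2 and fewer for 1. The pair with fewer was leucine, where LARS1 had none and LARS2 had 1 position in each group. The equal pairs were arginine and tyrosine, with YARS1 at 2 after TGF-β1 and 1 in control and YARS2 at 3 after TGF-β1 and 0 in control. Transcript level and read depth are not given, so the smaller number of mitochondrial positions cannot be told apart from fewer reads.

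The median mismatch difference of the listed positions was 4.43% after TGF-β1 and 4.25% in control for the synthetase and scaffold genes, against 4.68% after TGF-β1 and 4.04% in control over all genes. In the cytosolic enzymes it was 4.02% after TGF-β1 (quartiles 2.99 to 6.26) and 4.20% in control (2.34 to 6.03). In the mitochondrial enzymes it was 6.21% after TGF-β1 (5.05 to 9.43, 10 positions) and 8.41% in control (3.93 to 11.2, 7 positions). The mitochondrial medians were thus the higher ones in both groups, over few positions and with overlapping quartiles.

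**Figure D2:**
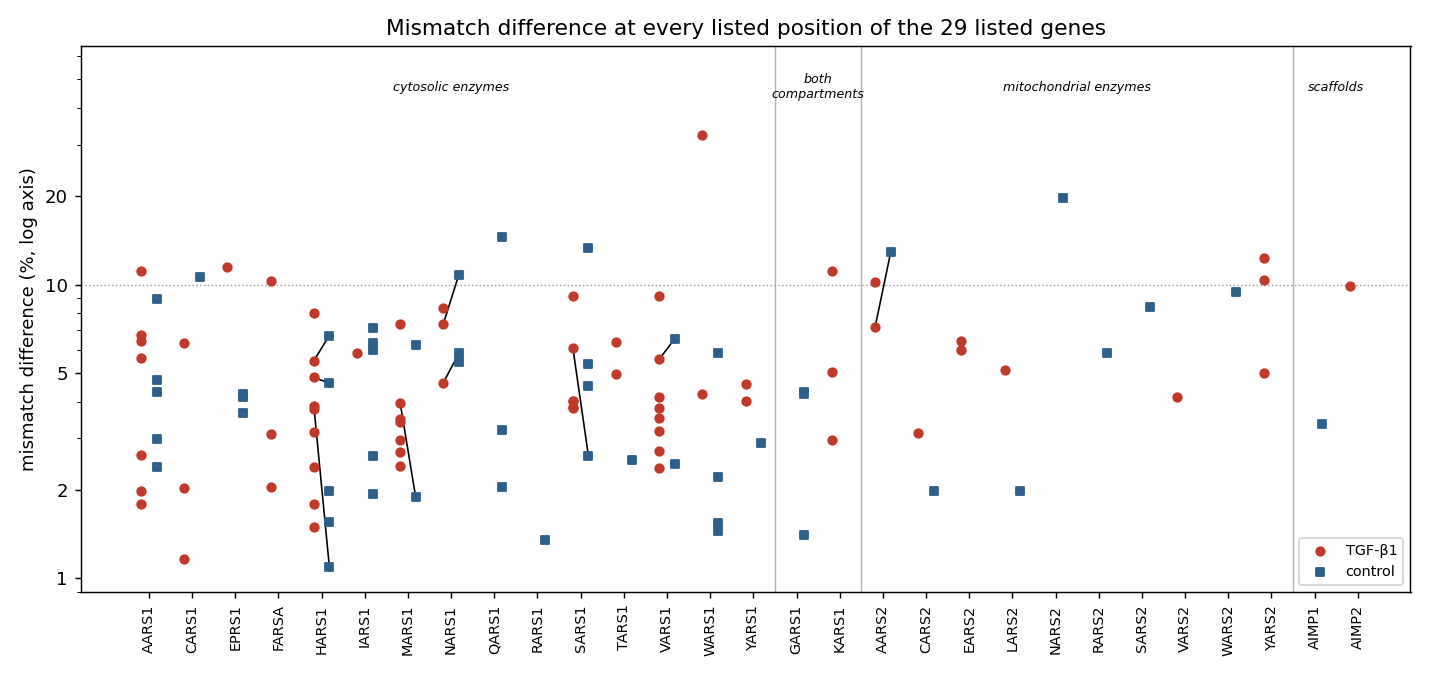
Mismatch difference in percent (log axis) at every listed position of the 29 listed genes, TGF-β1 as circles left of control as squares, with a line joining the 2 values of a cytidine listed in both groups. Most positions lie between 1% and 10%, and the highest is the WARS1 position of 32.4% after TGF-β1.

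Values of 10% or more stood at 8 of 68 positions after TGF-β1 and 6 of 51 in control. Over all positions the share at or above 10% was 18.5% after TGF-β1 and 12.4% in control. The highest value of the set was in WARS1 (ENSG00000140105), at chromosome 14 position 100342540 on the minus strand of hg38, with 32.4% after TGF-β1 in coding sequence and an authors' p-value of 1.18e-05. It stood at rank 147 of the 11735 TGF-β1 positions, and the other WARS1 positions were between 1.45% and 5.85%. The remaining positions of this size after TGF-β1 were in YARS2, at 12.4% and 10.4%, EPRS1 at 11.5%, AARS1 and KARS1 at 11.1% each, FARSA at 10.3% and AARS2 at 10.2%. Among them, EPRS1, AARS1 and the 10.4% position of YARS2 carry a deposited p-value of exactly 0. In control the highest was a 5'UTR position of NARS2, the mitochondrial asparagine enzyme, at 19.7% with a p-value of exactly 0. It was followed by a 5'UTR position of QARS1 at 14.6%, a noncoding exon of SARS1 at 13.3%, coding positions of AARS2 at 12.9%, NARS1 at 10.8% and CARS1 at 10.7%. Of these 14 values only those of AARS2 at 12.9% and NARS1 at 10.8% belong to cytidines listed in both groups. Sharing was low over all genes too, at 16.9% of TGF-β1 and 24.5% of control positions of any size. The share among all positions of 10% or more was not counted.

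Only 9 cytidines of these genes were listed in both groups, which is 13.2% of the 68 positions after TGF-β1 and 17.6% of the 51 in control. Over all genes 16.9% of the TGF-β1 positions and 24.5% of the control positions were shared. Of the 9, 4 were higher after TGF-β1 and 5 lower, and their median difference was -0.97 points (median log2 ratio -0.23). Over all 1985 shared positions 78.4% were higher and 21.6% lower, with a median difference of 1.73 points (log2 ratio 0.58). The share of 4 in 9 has a 95% Wilson interval of 18.9 to 73.3%, which covers counting error only, treats neighbouring bases as independent and has the 78.4% of all positions above it. With 1 mean value per gene, an alternative chosen after seeing the data, 3 of 6 genes were higher (50%, 18.8 to 81.2), and that interval holds 78.4%. The share was 4 of 8 with p below 0.001 and again 4 of 8 with the reduced TGF-β1 list, and 0 of 4 with only positions of at least 5% in both tables, against 76.5% of all. All 9 lay in coding sequence, as did 1577 of all 1985 shared positions.

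The 4 higher cytidines were in SARS1, HARS1 and MARS1. SARS1 at chromosome 1 position 109214017 had 6.09% after TGF-β1 and 2.62% in control, a difference of 3.47 points. HARS1 at chromosome 5 position 140674688 had 3.88% after TGF-β1 and 1.10% in control, and a listed neighbour 4 bases away had 1.79% after TGF-β1 only. MARS1 at chromosome 12 position 57516297 had 3.96% after TGF-β1 and 1.89% in control. These 3 cytidines were below 3% in control. The remaining one, HARS1 at position 140676812, was nearly level, with 4.84% after TGF-β1 and 4.62% in control.

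The 5 lower cytidines were in NARS1, HARS1, VARS1 and AARS2, and all of them were above 5% in control. NARS1 (ENSG00000134440), at chromosome 18 positions 57620614 and 57620612, had 7.35% and 4.64% after TGF-β1, against 10.8% and 5.83% in control. These cytidines are 2 bases apart on the same transcript and are not independent of each other. HARS1 at position 140676813, next to the nearly level one, had 5.51% after TGF-β1 and 6.71% in control. VARS1 at chromosome 6 position 31784452 had 5.58% after TGF-β1 and 6.54% in control. AARS2 at chromosome 6 position 44306990, the cytidine printed above, had 7.17% after TGF-β1 (authors' p-value 0.0353) and 12.9% in control (0.00172). It was the only mitochondrial one and had the largest difference of the 9, -5.70 points.

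**Figure D3:**
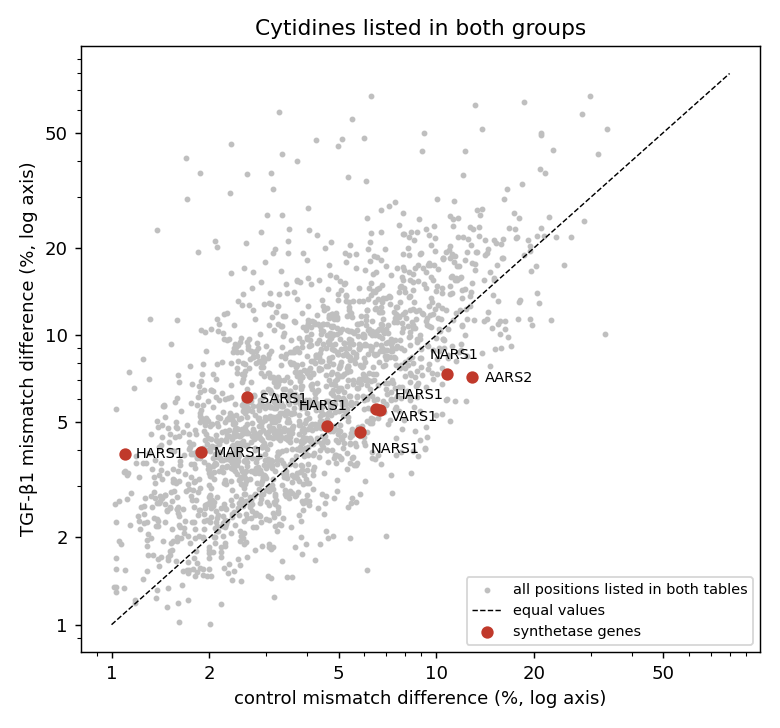
Mismatch difference in percent at cytidines listed in both groups, TGF-β1 on the vertical and control on the horizontal log axis, with all 1985 positions in grey and those of synthetase genes in red. The grey points lie mostly above the line of equal values (78.4%), while 4 of the 9 red points lie above it and 5 below.

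Some listed cytidines lay close together. Within 10 bases of another listed position of the same gene were 21 of the 110 positions (19.1%), in 10 clusters of 7 genes, against 16.4% over all genes. Within each group it was 12 of 68 after TGF-β1 (17.6%, against 14.1% over all genes) and 12 of 51 in control (23.5%, against 10.7%). These differences from all genes were not tested. Adjacent bases were listed within a group in HARS1, MARS1 (3.495% and 2.696%, after TGF-β1 only), GARS1 and IARS1 (5.97% and 6.32%, in control only). IARS1 had a further pair 2 bases apart in control, at 2.61% and 7.12%, so that 4 of its 5 control positions stood in pairs. SARS1 at chromosome 1 had a group of 3 within 4 bases, of which positions 109237315 and 109237318 were listed in control at 5.38% and 4.53% and position 109237319 after TGF-β1 at 4.03%. There the groups listed different cytidines of the same stretch.

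By segment, 62 of the 68 positions after TGF-β1 (91.2%, Wilson interval 82.1 to 95.9) and 41 of the 51 in control (80.4%, 67.5 to 89.0) were in coding sequence. Over all positions the coding share was 76.3% after TGF-β1 and 74.7% in control. In 5'UTRs lay 3 positions after TGF-β1, in HARS1, KARS1 and AIMP2, and 7 in control, in AARS1, GARS1, NARS2, QARS1 and SARS2. Some were far inside the gene, at 54.9% of the span from its 5' end in SARS2, 40.7% in AIMP2 and 36.4% in GARS1. The other 5'UTR positions lay within the first 13.6%. The 5'UTR shares were 4.41% (1.51 to 12.2) after TGF-β1 and 13.7% (6.81 to 25.7) in control, with overlapping intervals, against 9.96% after TGF-β1 and 9.87% in control over all positions. The 3'UTRs held 3 positions after TGF-β1 and 2 in control. Measured from the 5' end of the gene, the median place was at 71.5% of the gene's span after TGF-β1 and 55.7% in control, against 66.7% after TGF-β1 and 67.5% in control over all genes.

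The ratio of positions after TGF-β1 to positions in control was lower in genes of longer span, in the set as in all genes. Listed genes of the set with more positions after TGF-β1 had a median span of 24.3 kb and those with fewer 53.5 kb, against 21.1 kb and 48.6 kb over all genes. The 11 members under 25 kb had 36 positions after TGF-β1 and 19 in control (ratio 1.89, interval 1.06 to 3.50), and all genes of that span had a ratio of 1.95. The 9 members from 25 to 50 kb had 25 positions after TGF-β1 and 15 in control (ratio 1.67), against 1.61 over all. The 9 members of 50 kb or more had 7 positions after TGF-β1 and 17 in control (ratio 0.412, interval 0.144 to 1.04), against 0.928, which the interval holds. IARS1 (83.6 kb), EPRS1 (77.9 kb) and GARS1 (53.5 kb) had fewer positions after TGF-β1, and so did QARS1, which spans only 9.20 kb. RefSeq gives shorter spans for GARS1 (39.3 kb) and YARS2 (9.35 kb, against 28.4 kb here), which would place both in a shorter class. The medians and ratios were not recomputed with RefSeq spans. The listed mitochondrial genes had a median span of 54.6 kb and the cytosolic ones 32.9 kb. The part of gene span in these counts was not tested.

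**Figure D4:**
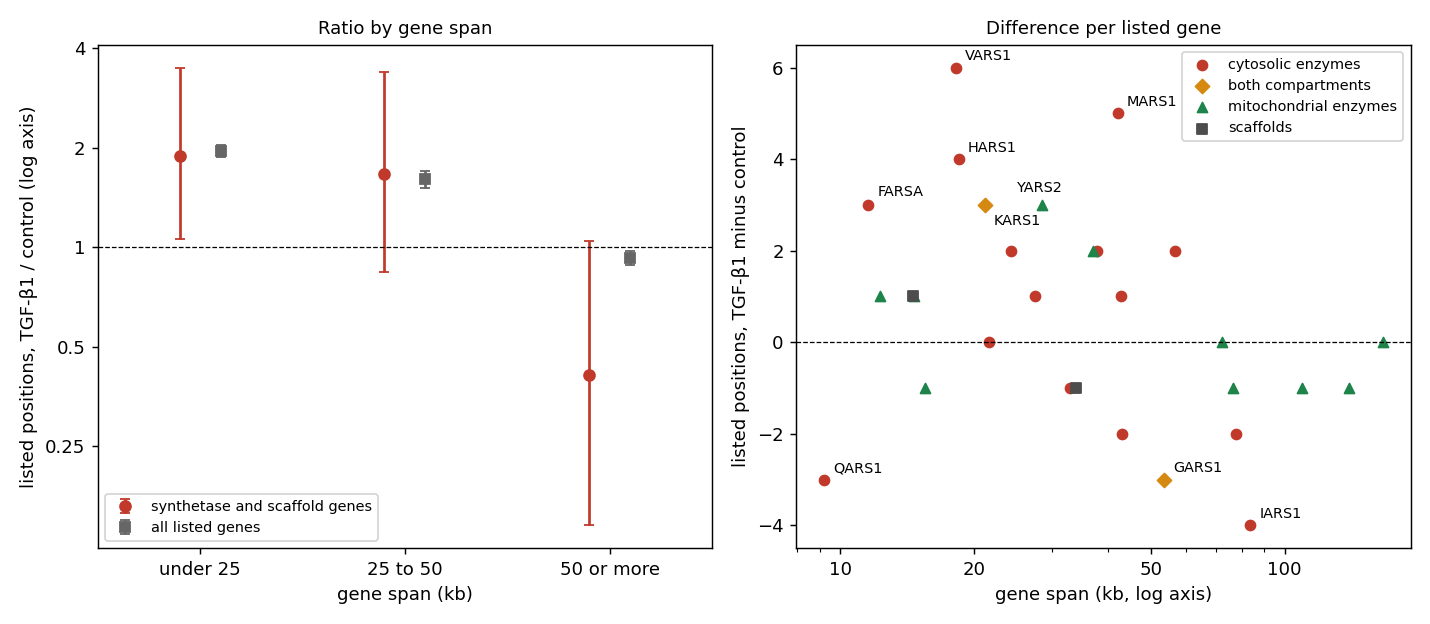
Left, listed positions after TGF-β1 over control (log axis) by gene span in kb, for the synthetase and scaffold genes and for all listed genes, with 95% exact intervals that cover the counting of positions only. Right, TGF-β1 minus control positions of each listed gene of the set against its span (log axis), with VARS1 highest at 6 and IARS1 lowest at -4.

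Other genes that handle tRNA charging were compared as a list of 19, of which 11 were listed, with 18 positions after TGF-β1 and 16 in control (ratio 1.13, interval 0.542 to 2.36). In this list 4 genes had more, 4 fewer and 3 equal numbers, and all 4 shared cytidines were higher after TGF-β1. Over all genes the ratio was 1.46, 51.2% had more and 35.3% fewer, and 78.4% of shared positions were higher. TUFM, the mitochondrial elongation factor that delivers charged tRNA, had 4 positions after TGF-β1 and 2 in control. ELAC2, which trims the 3' end of tRNA precursors, had 4 after TGF-β1 and 1 in control, with a shared cytidine at 4.09% after TGF-β1 and 2.91% in control. DTD1, which removes D-amino acids from tRNA, and EEF1A1, the cytosolic counterpart of TUFM, each had 2 in both groups.

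Genes of the response to uncharged tRNA and of amino acid supply formed a list of 22, of which 13 were listed, with 29 positions after TGF-β1 and 18 in control (ratio 1.61, interval 0.865 to 3.08). More positions were found in 8 genes, fewer in 4 and equal numbers in 1, and all 5 shared cytidines were higher after TGF-β1. The values over all genes were again a ratio of 1.46, 51.2% with more, 35.3% with fewer and 78.4% of shared positions higher. GCN1, the ribosome-bound activator of GCN2, had 9 positions after TGF-β1 and 6 in control. Its 3 shared cytidines had 25.7%, 20.2% and 7.20% after TGF-β1, against 11.01%, 19.4% and 4.05% in control. SLC3A2, the heavy chain of amino acid transporters, had 6 positions after TGF-β1 and 2 in control. SHMT2, which makes glycine from serine in mitochondria, had 4 after TGF-β1 and 2 in control, and PHGDH, the first enzyme of serine synthesis, 3 after TGF-β1 and 1 in control. ATF4 itself had 0 after TGF-β1 and 1 in control, and GCN2, listed as EIF2AK4, had 0 after TGF-β1 and 2 in control. In both lists the shared cytidines are few, and neither list was tested against the synthetases.

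The labelled cell type was checked on marker genes, as far as a table of mismatches allows. Of 12 stellate markers 8 were listed, among them COL1A1 with 10 positions after TGF-β1 and 4 in control and TAGLN with 9 after TGF-β1 and 2 in control. COL1A2, DES, GFAP and LRAT were not listed. The 8 together had 38 positions after TGF-β1 and 12 in control, a ratio of 3.17 (interval 1.62 to 6.66), against 1.46 over all genes. No hepatocyte marker of 8 and no endothelial marker of 6 was listed. Of 6 macrophage markers CD68, a lysosomal protein found in other cells too, was the one listed, with 2 positions after TGF-β1 and 3 in control.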

How the data were processed

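Per the labels' protocols, libraries were made from bead-captured polyadenylated RNA of LX-2 cells. The submitters' processing notes name build hg38 and the tools STAR 2.7.6a, fastp 0.23.1 and featureCounts without their roles. How positions were called and filtered and how replicates were pooled is not given in the sources used here. Per the file headers, the authors deposited for each position a column named diff, a fraction printed here in percent as the mismatch difference, and a p-value. Every deposited p-value is below 0.05 and every mismatch difference at least 1%.

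Lines were merged to 1 per position and gene, and the segment was taken in the order coding, 5'UTR, 3'UTR, noncoding exon, intron. A position counted as shared when both tables held the same base on the same strand. Gene spans are those of the tables. Depth is unknown. With 1 value per group, no test between groups was made. Ratios have exact binomial intervals and shares Wilson intervals at 95%, both over positions. The calculations were tested on simulated data. The members, the lists and the alternatives were chosen with earlier results of these data known. Named by rule were shared positions, positions of at least 10%, genes that differed by 3 or more positions, positions within 10 bases of each other, and up to 4 genes of each other list. Further genes were named after their values were seen. Python 3.11.15, pandas 2.3.3 and scipy 1.17.1 were used.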

Additional observations from a re-analysis of the deposited data

How the results depend on the processing

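Alternatives were a p-value below 0.001, a minimum of 2% or 5%, leaving out p-values of exactly 0 or positions in several genes, coding sequence only, and a TGF-β1 list reduced by lowest p to as many positions as in control. The ratio of the members ran from 0.961 (reduced list) to 1.89 (genes under 25 kb, an alternative chosen after seeing the data), that of the cytosolic enzymes from 0.975 to 1.53 and that of the mitochondrial enzymes from 0.857 to 2, all within the counting interval of the value reported. All 3 ratios fell below 1 with the reduced list alone. With that list 9 members, not 15, had more positions after TGF-β1 and 14, not 11, had fewer, a count not made over all genes. With a minimum of 5%, 7 members, not 11, had fewer, and 0% of the shared member positions, not 44.4%, were higher, while the share was 28.6% to 50% under the other alternatives run. The median difference at shared member positions was below 0 under each alternative run, from -2.33 to -0.18 points, the last with 1 value per gene, and with sharing within 3 bases it was -0.73. The p-value limit of 0.001 shortened the list too, and there 13 members had more positions and 9 fewer. Why the counts changed was not tested. Leaving out a library was not possible, since the tables give 1 value per group. No paired analysis was possible because the tables carry no replicate values.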
